A study of Mus musculus with 30 samples.

Results

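Calcineurin, its inhibitor Rcan1 and the catalytic subunits of protein phosphatase 1 were followed in mouse left ventricle across 8 groups of arrays. The members were all probe sets whose gene symbol in the platform annotation was Rcan1, Ppp3ca, Ppp3cb, Ppp1ca, Ppp1cb or Ppp1cc. They came to 5 probe sets, 1 each for 5 of the 6 genes, of 12488 on the array, and Ppp1ca had no probe set under its own symbol. The genes were chosen by their HCM minus WT values on these arrays, seen in earlier results, so their HCM differences are given as a description, without a test; effects of diet and sex, and the dependence of the HCM difference on diet or sex, were tested. The diet dependence is built from the HCM differences on each diet, and whether diet values also entered the choice is not known, so its p-values are no independent support.

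Calcineurin is a phosphatase switched on by calcium and calmodulin. It strips phosphate from NFAT transcription factors, which then enter the nucleus, and in heart muscle this route is known for driving hypertrophic growth. Rcan1 binds and inhibits calcineurin and is itself a target gene of NFAT in mouse heart, so that its transcript is often read as a gauge of the pathway. Protein phosphatase 1, built from a catalytic subunit made by Ppp1ca, Ppp1cb or Ppp1cc and one of many regulatory subunits, reverses the action of protein kinases on contractile and calcium-handling proteins.

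The series held 30 Affymetrix MG_U74Av2 arrays in a layout of sex, diet and genotype. The animals labelled HCM and the wild-type (WT) animals were both C57BL/6 mice aged 2 months, and the labels name neither the mutation behind HCM nor the promoter or cells that express it. The HCM groups were female casein HCM (4 arrays), male casein HCM (4), female soy HCM (3) and male soy HCM (3), set against female casein WT, male casein WT, female soy WT and male soy WT (4 arrays each); casein and soy name the protein of the diet. RNA of 2 animals was pooled for each array, so p-values measure the spread between pools, and the number of arrays limits the precision. Values are log2 expression.

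Levels of different probes cannot be ranked, so the tissue label was described rather than tested. The ventricular cardiomyocyte markers (7 genes, 8 probe sets) averaged 11.70 to 12.59 over the arrays, the atrial markers 6.68 to 8.76, the skeletal muscle markers 5.27 to 5.78 and the adipocyte markers 4.70 to 5.20. Male soy WT replicate 2 stood apart: its values deviated from its group's mean by 0.348 (root mean square), against 0.0815 to 0.192 on the other 29 arrays, and all 5 members had their lowest value of the series there. Results that rest on it are therefore also given without it. The added control RNAs separated the arrays into sets that follow diet and genotype. The Dap control read 7.19 to 8.07 on the casein HCM arrays and 4.03 to 4.70 on all others. Casein WT replicates 1 and 2 (set A) differed from replicates 3 and 4 (set B) in the BioD and BioC controls. Signs of RNA quality also followed the groups: the Gapdh 3′ minus 5′ value was -0.11 to 0.12 in casein HCM and 0.05 to 0.33 in casein WT, against -0.16 to -0.03 in soy HCM and -0.13 to 0.03 in soy WT, and the actin value was -0.50 to 0.17 in casein HCM and 0.10 to 0.44 elsewhere. Their part in the diet and HCM differences was not tested. Array set cannot be told apart from the diet and genotype groups, except within casein WT, and both sexes were present in each set. A random block for array set, used below, therefore could not remove a set effect from diet or HCM differences. Calls kept under that block do not show that they were free of such an effect.

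Rcan1 has a pair of transcription starts in the RefSeq promoter table (GRCm38.p6), 66091 bases apart on the minus strand of chromosome 16. Both are shown because the NFAT link of this gene is known for the internal start, and the probe set could not be assigned to either. Each sequence runs 5′ to 3′ from 250 bases before to 50 bases after the start, with the core GGAAA, or its complement TTTCC, in capitals.
Rcan1 upstream start, chr16:92466120-92466419: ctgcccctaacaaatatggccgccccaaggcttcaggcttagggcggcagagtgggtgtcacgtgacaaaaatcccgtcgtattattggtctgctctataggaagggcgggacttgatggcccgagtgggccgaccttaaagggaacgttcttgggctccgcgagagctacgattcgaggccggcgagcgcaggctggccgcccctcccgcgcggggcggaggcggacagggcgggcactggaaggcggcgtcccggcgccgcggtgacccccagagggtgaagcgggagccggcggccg
Rcan1 internal start, chr16:92400029-92400328: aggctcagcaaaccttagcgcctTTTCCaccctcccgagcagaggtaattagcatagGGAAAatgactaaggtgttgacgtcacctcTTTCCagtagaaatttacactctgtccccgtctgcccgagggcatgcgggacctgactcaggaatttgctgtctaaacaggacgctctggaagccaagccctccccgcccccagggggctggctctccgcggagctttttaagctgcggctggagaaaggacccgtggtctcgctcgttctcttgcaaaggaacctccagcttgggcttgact
The internal promoter held 3 such cores on either strand, a number reached by 9.4% of the 32851 promoters in the table, and the upstream promoter held 0; 61.3% of all promoters held at least 1. The internal promoter also held 1 match to TGANTCA, the AP-1 motif, found in 7.8% of promoters, and 1 match to TGACGTCA, the cAMP response element, found in 1.8%. Neither held a match to the MEF2 motif on either strand, which 3.7% of promoters held. No pair of these matches overlapped. Of the other members, the Ppp3cb promoter held 4 GGAAA cores (2.6% of promoters held as many), the Ppp1cc promoter 1 and the Ppp1cb promoter 0.

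Rcan1, the inhibitor, was higher in HCM than in WT ventricles in each of the 4 combinations of sex and diet, and its HCM difference did not depend detectably on diet or sex. In females on casein it read 9.32, 8.84, 9.90 and 9.36 in HCM, against 8.13, 8.27, 8.24 and 8.50 in WT. In males on casein it read 9.06, 9.11, 8.81 and 9.31 in HCM, against 8.74, 7.89, 9.02 and 9.05 in WT. All female casein HCM arrays lay above all female casein WT arrays, while the male groups overlapped. In females on soy it read 9.47, 9.13 and 9.52 in HCM, against 8.89, 9.07, 9.11 and 8.59 in WT. In males on soy it read 8.65, 9.58 and 9.57 in HCM, against 8.71, 7.68, 9.19 and 8.43 in WT. The 3 female soy HCM arrays lay above the female soy WT arrays, and 1 male soy HCM array, at 8.65, lay within the range of male soy WT.

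Over all arrays, Rcan1 ranged from 8.65 to 9.90 with a median of 9.31 in HCM (n = 14) and from 7.68 to 9.19 with a median of 8.65 in WT (n = 16). The mean log2 difference of HCM over WT was 0.67 ± 0.14 (SE), or 1.59-fold, and 0.60 ± 0.12 without male soy WT replicate 2. It was 1.07 ± 0.26 in females on casein, 0.40 ± 0.26 in males on casein, 0.45 ± 0.28 in females on soy and 0.76 ± 0.28 in males on soy, the last being 0.49 ± 0.26 without that array. The value for males on casein was 0.13 ± 0.25 without male casein WT replicate 2, which read 7.89. The tests of its dependence found a casein minus soy difference of the HCM effect of 0.13 ± 0.27 (limma adjusted p = 0.738; 95% interval -0.43 to 0.68) and a female minus male difference of 0.18 ± 0.27 (limma adjusted p = 0.941; -0.37 to 0.74). Without male soy WT replicate 2 these differences were 0.26 and 0.32, and in fits to one sex alone the diet dependence was 0.62 in females and -0.37 in males, neither past the threshold (limma adjusted p = 0.0617 and 0.598). The 95% intervals still allow a sizeable dependence in either direction. Against the casein WT arrays of set A the casein difference was 0.96 ± 0.22 and against those of set B 0.51 ± 0.21, and these values came from fits without the other set.

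**Figure D1:**
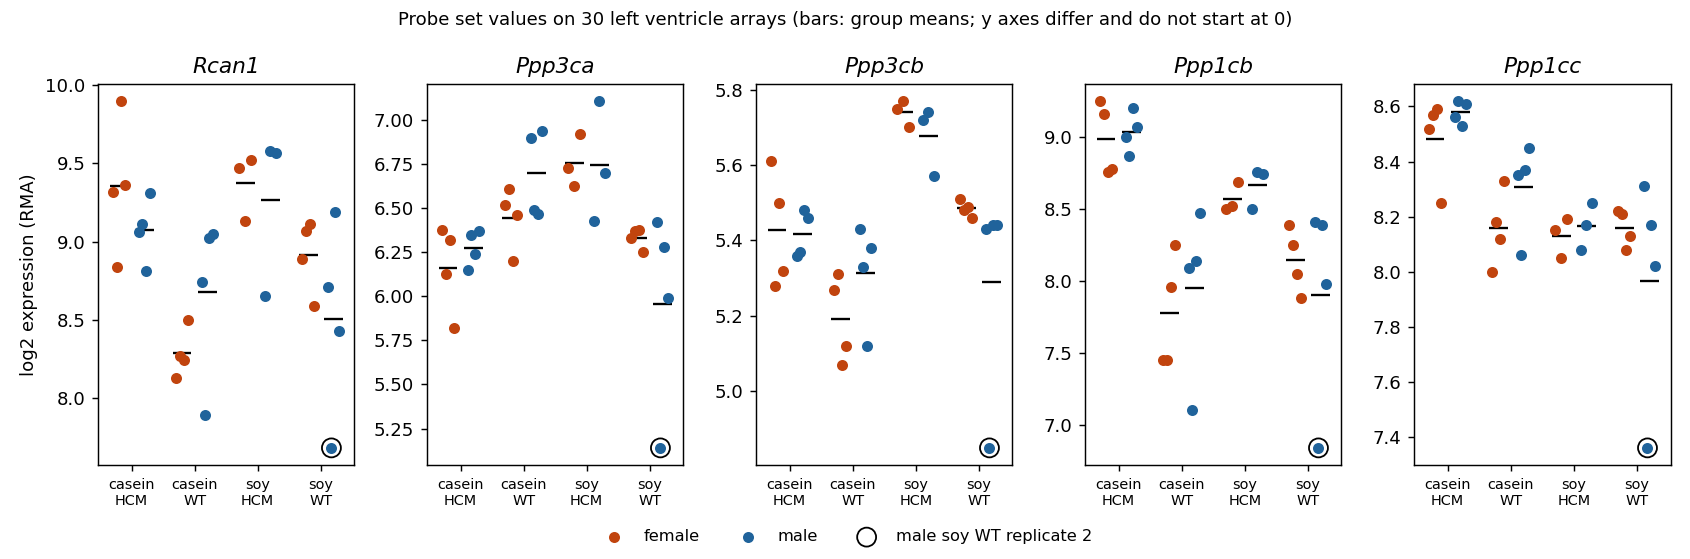
Log2 expression of the 5 member probe sets on each array, by diet and genotype along the horizontal axis, with females and males in different colours, bars at the means of the 8 groups and a ring around male soy WT replicate 2. Ppp1cb in casein HCM (8.76 to 9.25) lies above casein WT (7.10 to 8.47), and the ringed array is the lowest for every gene.

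Ppp3ca, which encodes the alpha catalytic subunit of calcineurin, was the member whose HCM difference turned with diet: it was higher in HCM than in WT on soy and lower on casein. In females on casein it read 6.38, 6.13, 6.32 and 5.82 in HCM, against 6.52, 6.61, 6.2 and 6.46 in WT. In males on casein it read 6.15, 6.35, 6.24 and 6.37 in HCM, against 6.90, 6.49, 6.47 and 6.94 in WT. The male casein groups did not overlap, with HCM the lower, and the female casein groups did. In females on soy it read 6.73, 6.63 and 6.92 in HCM, against 6.33, 6.37, 6.38 and 6.25 in WT. In males on soy it read 6.43, 7.11 and 6.70 in HCM, against 6.42, 5.14, 6.28 and 5.99 in WT. Every soy HCM array was above every soy WT array, although the nearest pair, 6.43 in HCM and 6.42 in WT, were almost level.

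The Ppp3ca difference of HCM over WT was -0.35 ± 0.13 on casein and 0.61 ± 0.14 on soy, with 0.47 ± 0.11 on soy without male soy WT replicate 2. The diet dependence of the HCM difference, its casein value minus its soy value, was -0.96 ± 0.19 (limma adjusted p = 0.000198; 95% interval -1.35 to -0.57), and -0.82 ± 0.14 without that array (limma adjusted p = 2.25e-05). Ppp3ca was the only 1 of the 5 members to pass in this comparison, against 45.2% of all 12422 probe sets tested. Treating the array set as a random block, which cannot separate it from diet and genotype, gave a limma adjusted p of 0.0203. With either casein WT set alone the difference was -1.02 (set A) and -0.91 (set B). In fits to one sex alone it was -0.72 in females (limma adjusted p = 0.0029) and -1.21 in males (limma adjusted p = 0.0163), so the direction was shared by the sexes. Averaged over diets, the opposite differences left a mean HCM difference of 0.13 ± 0.10, or 0.06 ± 0.07 without male soy WT replicate 2.

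Read the other way, Ppp3ca was lower on casein than on soy in HCM ventricles and, mainly in males, higher on casein than on soy in WT ventricles. In HCM it ranged from 5.82 to 6.38 (median 6.28, n = 8) on casein and from 6.43 to 7.11 (median 6.71, n = 6) on soy, without overlap. The casein minus soy difference in HCM was -0.53 ± 0.14 (limma adjusted p = 0.00186), with 3 of 5 members past the threshold in that comparison against 61.1% of all probe sets; with a random block for the array set the adjusted p was 0.0545. In WT it ranged from 6.2 to 6.94 (median 6.50, n = 8) on casein and from 5.14 to 6.42 (median 6.30, n = 8) on soy, and the ranges overlapped. The difference in WT was 0.43 ± 0.13 (limma adjusted p = 0.00842), or 0.29 ± 0.10 without male soy WT replicate 2 (limma adjusted p = 0.0143), where 46% of all probe sets passed; it did not pass with the random block (adjusted p = 0.114). By sex, the WT difference was 0.11 ± 0.18 in females (limma adjusted p = 0.69) and 0.74 ± 0.18 in males (limma adjusted p = 0.00228). Without male soy WT replicate 2 the male value was 0.47 ± 0.14 (limma adjusted p = 0.0116). The mean diet difference over both genotypes, in which the opposite values offset each other, was -0.05 ± 0.10 (limma adjusted p = 0.658). Without male soy WT replicate 2 it was -0.12 ± 0.07 (limma adjusted p = 0.135). With array weights it was -0.17 and passed (limma adjusted p = 0.027). In fits to one sex alone it was -0.24 in females (limma adjusted p = 0.0195) and 0.14 in males (limma adjusted p = 0.504).

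Ppp3cb, the beta catalytic subunit of calcineurin, was a dim probe set whose small diet differences, averaged over the sexes, ran the same way in both genotypes. It read 5.28 to 5.61 (median 5.42) in casein HCM, against 5.07 to 5.43 (median 5.29) in casein WT. On soy it read 5.57 to 5.77 (median 5.73) in HCM, against 4.85 to 5.51 (median 5.45) in WT. The soy HCM arrays lay above all soy WT arrays, and the casein groups overlapped. The difference of HCM over WT was 0.17 ± 0.07 on casein and 0.32 ± 0.08 on soy, with 0.25 ± 0.06 on soy without male soy WT replicate 2, and the test of casein against soy gave -0.15 ± 0.10 (limma adjusted p = 0.238), or -0.08 ± 0.08 without that array. Ppp3cb was lower on casein than on soy by a mean log2 difference of -0.21 ± 0.05 (limma adjusted p = 0.000994); it was -0.29 ± 0.08 in HCM (limma adjusted p = 0.002; 0.0514 when the array set was a random block) and -0.13 ± 0.07 in WT (limma adjusted p = 0.126), the WT value being -0.21 ± 0.05 without that array (limma adjusted p = 0.00234). By sex, the WT diet difference was -0.29 ± 0.10 in females (limma adjusted p = 0.0338) and 0.02 ± 0.10 in males (limma adjusted p = 0.876). The male value was -0.12 ± 0.08 without male soy WT replicate 2. Unlike that of Ppp3ca, the mean value of Ppp3cb stood at percentile 35.1 of all probe sets, and it dropped out when the dimmest 40% were removed.

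Ppp1cb, the beta catalytic subunit of protein phosphatase 1 and the form that joins the myosin phosphatase complex, had the largest mean HCM difference of the 5 members; on casein it was also the largest, and on soy Rcan1 and Ppp3ca (0.61 each) were level with it or above (0.60). In females on casein it read 9.25, 9.16, 8.76 and 8.78 in HCM, against 7.45, 7.45, 7.96 and 8.25 in WT. In males on casein it read 9.0, 8.87, 9.20 and 9.07 in HCM, against 8.09, 7.10, 8.14 and 8.47 in WT. Every casein HCM array was above every casein WT array, and Ppp1cb was the 1 of 5 members for which this held on casein; over all probe sets 8.02% were higher without overlap. In females on soy it read 8.50, 8.52 and 8.69 in HCM, against 8.39, 8.25, 8.05 and 7.88 in WT. In males on soy it read 8.50, 8.76 and 8.74 in HCM, against 8.41, 6.84, 8.39 and 7.98 in WT. Every soy HCM array was again above every soy WT array, as for Ppp3ca and Ppp3cb; these 3 of 5 members stand beside 4.35% of all probe sets higher without overlap on soy, a contrast the choice of genes used.

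The Ppp1cb difference of HCM over WT was 0.87 ± 0.13 on average, or 1.83-fold, and 0.78 ± 0.10 without male soy WT replicate 2. On casein it was 1.15 ± 0.18, and it was 1.49 ± 0.21 against set A of the casein WT arrays and 0.81 ± 0.19 against set B, whose means were 7.52 and 8.20. On soy it was 0.60 ± 0.20, or 0.42 ± 0.16 without male soy WT replicate 2. The casein minus soy difference of the HCM effect was 0.55 ± 0.27 (limma adjusted p = 0.094; 95% interval 0.00 to 1.10) and missed the threshold; without that array it was 0.73 ± 0.21 and passed (limma adjusted p = 0.00483). The call also turned on the casein WT arrays, with 0.90 (limma adjusted p = 0.011) for set A alone and 0.21 (limma adjusted p = 0.522) for set B alone. In HCM, Ppp1cb was 0.39 ± 0.20 higher on casein than on soy (limma adjusted p = 0.0849; 0.0233 without male soy WT replicate 2), with casein HCM (8.76 to 9.25) just clear of soy HCM (8.50 to 8.76). Like Ppp3ca and Ppp1cc, 3 of 5 members in all, it did not overlap between these groups, against 37.7% of all probe sets.

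Levels of cell-type markers also differed between the groups, and their relation to Ppp1cb was not tested. The smooth muscle and pericyte markers (5 genes, 6 probe sets) averaged 7.74 to 8.22 in casein HCM, against 6.95 to 7.71 in casein WT. On soy they averaged 7.41 to 7.59 in HCM, against 7.06 to 7.47 in WT. For the mean HCM difference over both diets, 4 of 6 probe sets rose and 0 fell. Of all probe sets, 17.2% rose and 15.6% fell. The ventricular cardiomyocyte markers were 12.46 to 12.59 in casein HCM, against 12.33 to 12.51 in casein WT, and 12.28 to 12.40 in soy HCM, against 11.70 to 12.16 in soy WT; 7 of 8 rose and 0 fell. The atrial markers were 7.38 to 8.76 in casein HCM, against 6.68 to 7.54 in casein WT, and 6.88 to 7.59 in soy HCM, against 7.39 to 8.15 in soy WT, so their order by genotype differed between the diets. Of the others, 5 of 12 fibroblast probe sets rose and 1 fell, 4 of 7 endothelial rose and 2 fell, 1 of 5 atrial and 1 of 6 skeletal muscle rose and 2 of 6 skeletal muscle fell, 2 of 7 macrophage fell, and none of the 2 red blood cell and 2 adipocyte probe sets passed. The part of cell makeup in the members' differences was not tested; in whole ventricle, fewer cells of a type and less RNA per cell cannot be told apart.

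Ppp1cc, the gamma catalytic subunit of protein phosphatase 1, was higher on casein than on soy over both genotypes and in HCM, and had a smaller HCM difference than Ppp1cb. It read 8.25 to 8.62 (median 8.56) in casein HCM, against 8.0 to 8.45 (median 8.25) in casein WT. On soy it read 8.05 to 8.25 (median 8.16) in HCM, against 7.36 to 8.31 (median 8.15) in WT. The soy genotypes overlapped throughout, and every casein HCM array was above every soy HCM array, although the nearest pair both read 8.25. The difference of HCM over WT was 0.30 ± 0.09 on casein and 0.08 ± 0.10 on soy, with -0.02 ± 0.07 on soy without male soy WT replicate 2. The casein minus soy difference of the HCM effect was 0.21 ± 0.13 (limma adjusted p = 0.193), or 0.31 ± 0.09 without that array (limma adjusted p = 0.00505). Its mean diet difference of casein over soy was 0.27 ± 0.07 (limma adjusted p = 0.000716), or 0.22 ± 0.05 without that array. In HCM alone it was 0.38 ± 0.10 (limma adjusted p = 0.00128). With a random block for the array set, the limma adjusted p was 0.0277 for the mean and 0.0424 in HCM. In WT alone the difference was 0.17 ± 0.09 (limma adjusted p = 0.127), or 0.07 ± 0.06 without male soy WT replicate 2 (limma adjusted p = 0.388). By sex, the WT difference was -0.01 ± 0.13 in females (limma adjusted p = 0.983) and 0.34 ± 0.13 in males (limma adjusted p = 0.035). The male value was 0.14 ± 0.09 without that array (limma adjusted p = 0.25).

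**Figure D2:**
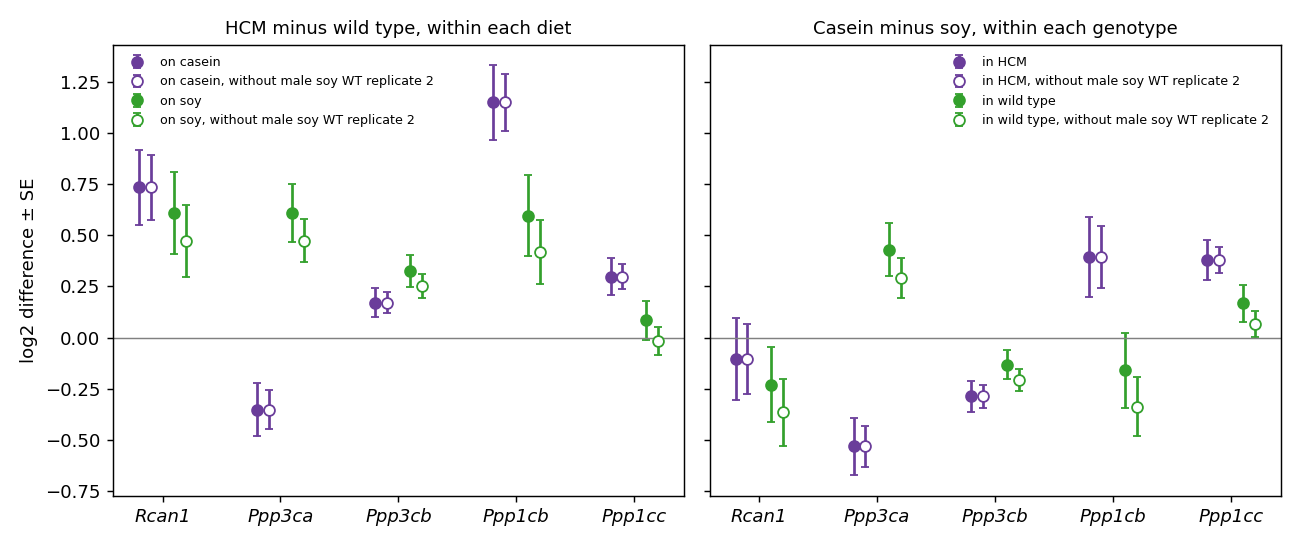
Log2 differences of HCM over WT within each diet (left) and of casein over soy within each genotype (right) for the 5 members, with bars of 1 standard error and open points for the fit without male soy WT replicate 2. Ppp3ca lies at -0.35 on casein and 0.61 on soy in the left panel, and at -0.53 in HCM and 0.43 in WT in the right panel.

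Across the members, 2 of 5 passed for the mean diet difference, Ppp3cb lower and Ppp1cc higher on casein, against 62.3% of all probe sets (29% higher and 33.3% lower), so a diet call was no more frequent here than elsewhere on the array. Rcan1 gave -0.17 ± 0.14 (limma adjusted p = 0.29), or -0.24 ± 0.12 without male soy WT replicate 2 (limma adjusted p = 0.0832). It passed after a further quantile normalization (-0.30 ± 0.13, limma adjusted p = 0.0444), with array weights (-0.26, limma adjusted p = 0.0251) and in females only (-0.33, limma adjusted p = 0.0357). In males only it was -0.01. In WT the Rcan1 diet difference was -0.63 ± 0.26 in females (limma adjusted p = 0.0744, or 0.0316 without that array) and 0.175 ± 0.26 in males. Ppp1cb gave 0.12 ± 0.13 (limma adjusted p = 0.463). Without male soy WT replicate 2 the Ppp1cb value was 0.03 ± 0.10. Sex made no detectable difference: the female minus male values lay between -0.02 and 0.10, 0 of 5 members passed in limma (smallest adjusted p = 0.836) and 0 had an unadjusted p under 0.05, where 0.233% of all probe sets passed. The HCM by sex and the diet by sex tests also called 0 of 5 members, with 0 at an unadjusted p under 0.05 and smallest adjusted p of 0.94 and 0.366, and called 0 of all probe sets, of which 503 and 1755 had an unadjusted p under 0.05.

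The members differed in how closely they tracked one another over the arrays. Rcan1 and Ppp1cb had a Pearson correlation of 0.78 over 30 arrays and 0.72 over the 29 without male soy WT replicate 2, and 0.51 within groups over those 29. Ppp1cb and Ppp1cc had 0.78, 0.70 and 0.73 by the same measures. The correlation of Ppp3ca with Ppp1cb, 0.24 over 30 arrays, was -0.10 without that array and 0.36 within groups over the same 29. These are descriptions, since arrays of a set share their processing and groups share their condition.

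**Figure D3:**
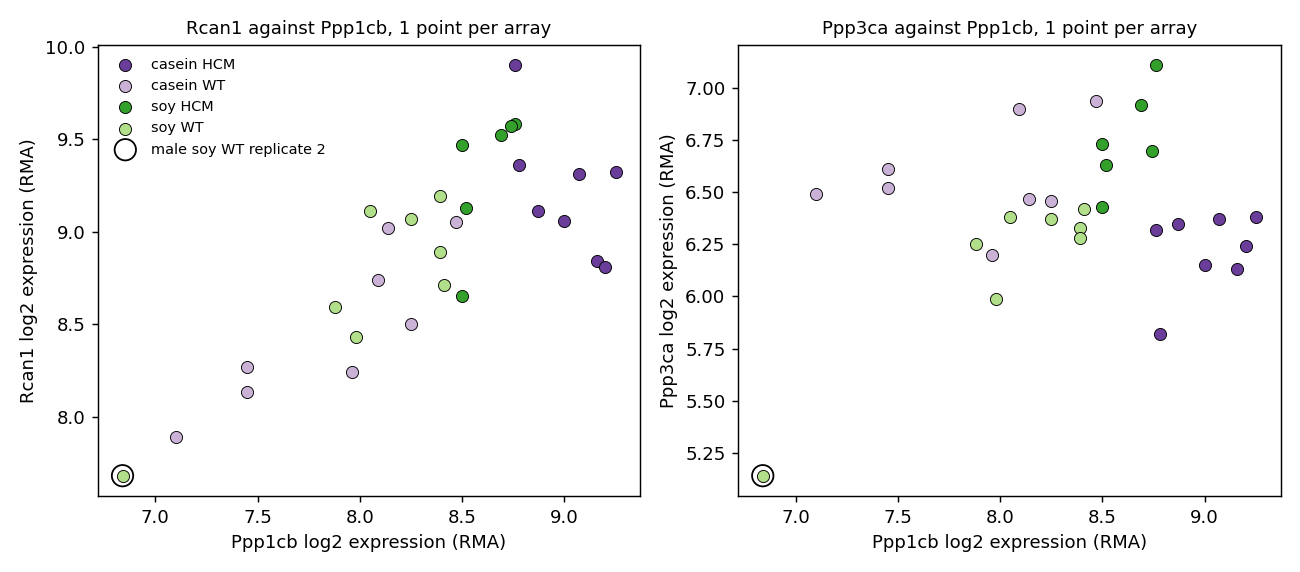
Log2 expression of Rcan1 (left) and Ppp3ca (right) against that of Ppp1cb, 1 point per array, coloured by diet and genotype, with a ring around male soy WT replicate 2. Rcan1 increases along the Ppp1cb axis (r = 0.72 over 29 arrays), while Ppp3ca has r = -0.10 over the same arrays; within groups the values are 0.51 and 0.36.

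By the correlation over 30 arrays, the genes most like each member were found among all named probe sets. Ppp1cb was most like Ccng1 (0.96), Uba3 (0.95) and Ppa2 (0.94), a cyclin, a subunit of the NEDD8-activating enzyme and a mitochondrial pyrophosphatase. Ppp1cc was most like Tmem126a (0.95), Mrpl44 (0.95) and Ndufs3 (0.94), all 3 genes of mitochondrial proteins. Ppp3ca was most like Arpc2 (0.94), Akirin2 (0.93) and Srsf3 (0.91), of which Arpc2 is a subunit of the actin-nucleating Arp2/3 complex and Srsf3 a splicing factor. Rcan1 was most like Ssbp2, Chordc1 and Chpt1 (0.87 to 0.88), and Ppp3cb most like the actin regulator Enah (0.87), Fam126b (0.85) and Pafah1b2 (0.84). Without male soy WT replicate 2 these values were 0.78 to 0.95.

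The wider pathway was described with 6 lists of 46 measured genes and 66 probe sets. On these, 12 probe sets rose and 14 fell in HCM, where 32.8% of all probe sets passed (17.2% higher and 15.6% lower). The lists were chosen with earlier results of these data known, so p-values on them are no independent support. Among partners and modulators of calcineurin (7 of 17 genes, 8 probe sets), 1 rose and 4 fell, with a median of -0.12 against -0.01 over all probe sets. When the array set was a random block, 4 of the 26 HCM calls on the lists were made, 1 probe set each of Mef2a, Mef2c, Ppp1r3c and Ppp6c, and 21 diet-dependent calls in place of 35. Fkbp1a, the binding protein of the calcineurin-blocking drug FK506, rose by 0.23 ± 0.08 (limma adjusted p = 0.0229). Cib1, a calcium-binding anchor for calcineurin, changed by -0.18 ± 0.04 (limma adjusted p = 0.0011) on one probe set, with -0.02 on another that did not pass, and Myoz1, a Z-disc protein that binds calcineurin, by -0.15 ± 0.05 (limma adjusted p = 0.0155). The catalytic subunit Ppp3cc and the regulatory subunit Ppp3r1 did not pass for the mean HCM difference over all arrays, although Ppp3r1, at -0.11, passed without male soy WT replicate 2 (limma adjusted p = 0.00135). For Ppp3cc the diet dependence, taken as for Ppp3ca, was 0.60 ± 0.08 (limma adjusted p = 8.18e-07), with 0.40 on casein and -0.20 on soy, which is opposite in direction to Ppp3ca. For Ppp3r1 it was -0.30 ± 0.10 (limma adjusted p = 0.0154), with -0.26 on casein and 0.03 on soy. The Ppp3r1 call was lost when the array set was a random block (adjusted p = 0.167). Rcan3 had a diet dependence of -0.31 ± 0.08 (limma adjusted p = 0.0035), with -0.28 on casein and 0.03 on soy. Its mean HCM difference was -0.13 ± 0.04 (limma adjusted p = 0.0221), opposite in direction to Rcan1. Neither Rcan3 call was made with the random block (limma adjusted p = 0.0839 and 0.23).

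Among the transcription factors downstream, NFAT, MEF2 and GATA (9 of 11 genes, 19 probe sets), 11 of 19 probe sets were called for diet dependence, all below 0, with a median of -0.45 against 0.02 over all probe sets, where 23.9% were higher and 21.3% lower. The 11 probe sets stood for 6 genes, Mef2a, Mef2c, Mef2d, Nfatc2, Nfatc3 and Gata6, and probe sets of 1 gene are not independent; Gata4 (-0.12), Nfatc1 (-0.08) and both probe sets of Mef2b (0.21 and 0.27) did not pass. Mef2a differed by -1.10 ± 0.14 (limma adjusted p = 5.44e-07), with -0.22 on casein and 0.88 on soy, and Mef2d by -0.95 ± 0.13 (limma adjusted p = 1.51e-06), with -0.67 on casein and 0.29 on soy. Nfatc3 differed by -1.19 ± 0.23 on one probe set (limma adjusted p = 0.000154) and by -0.07 on the other, which did not pass. Nfatc2 passed only on a dim probe set (mean 3.68). Its brighter probe sets gave -0.19 (limma adjusted p = 0.0505, or 0.00919 without male soy WT replicate 2) and 0.05 (limma adjusted p = 0.745). Of the Gata6 probe sets, a called one was dim (mean 3.30), and another gave 0.11 and did not pass (limma adjusted p = 0.637). For the mean HCM difference 2 rose and 6 fell. Both probe sets of Mef2a rose, by 0.33 and by 0.15, the latter on a dim probe set (mean 3.59). Mef2c fell on 3 of 4 probe sets, by 0.22 to 0.45, with 0.13 on the fourth, which did not pass. When the array set was a random block, 10 of the 11 diet-dependent calls on this list were made and 2 of the 8 for the mean HCM difference. That block cannot separate array set from diet and genotype.

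The opposing kinases and deacetylases (8 of 11 genes, 11 probe sets) had a median diet dependence of -0.39, with 1 higher and 6 lower, against 23.9% and 21.3% of all probe sets, and 1 and 4 when the array set was a random block. Hdac5, which represses MEF2, gave -0.83 ± 0.09 (limma adjusted p = 1.77e-08), with -0.60 on casein and 0.22 on soy. Its mean HCM difference was -0.19 ± 0.04 (limma adjusted p = 0.00117); on this list 2 probe sets, both of Csnk1a1, rose and 3 fell. Among calmodulin-dependent kinases (4 of 10 genes, 5 probe sets) 1 passed, Camk2d, the main cardiac form, which rose by 0.29 ± 0.08 (limma adjusted p = 0.0057). Of the regulatory subunits and inhibitors of protein phosphatase 1 (9 of 31 genes, 11 probe sets), 3 rose and 1 fell for the mean HCM difference. Ppp1r3c, which directs the enzyme to glycogen, rose by 0.31 ± 0.05 (limma adjusted p = 4.85e-05), and Ppp1r14b, an inhibitor, by 0.18 (limma adjusted p = 0.0123). For the diet dependence, 4 probe sets of this list were higher and 2 lower, with a median of -0.02. With the random block these counts were 2 and 1. Of other serine/threonine phosphatase catalytic subunits (9 of 12 genes, 12 probe sets), 3 rose and 0 fell for the mean HCM difference. These were Ppm1a by 0.32, Ppp6c by 0.28 on one probe set and Ppm1g by 0.14. The diet dependence on this list was higher for 4 probe sets and lower for 3, with a median of 0.22 against 0.02 over all probe sets. With the random block these counts were 1 and 1. For sex and its interactions with HCM and diet, 0 of the 66 probe sets passed in limma, with 7, 5 and 18 at an unadjusted p under 0.05.

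**Figure D4:**
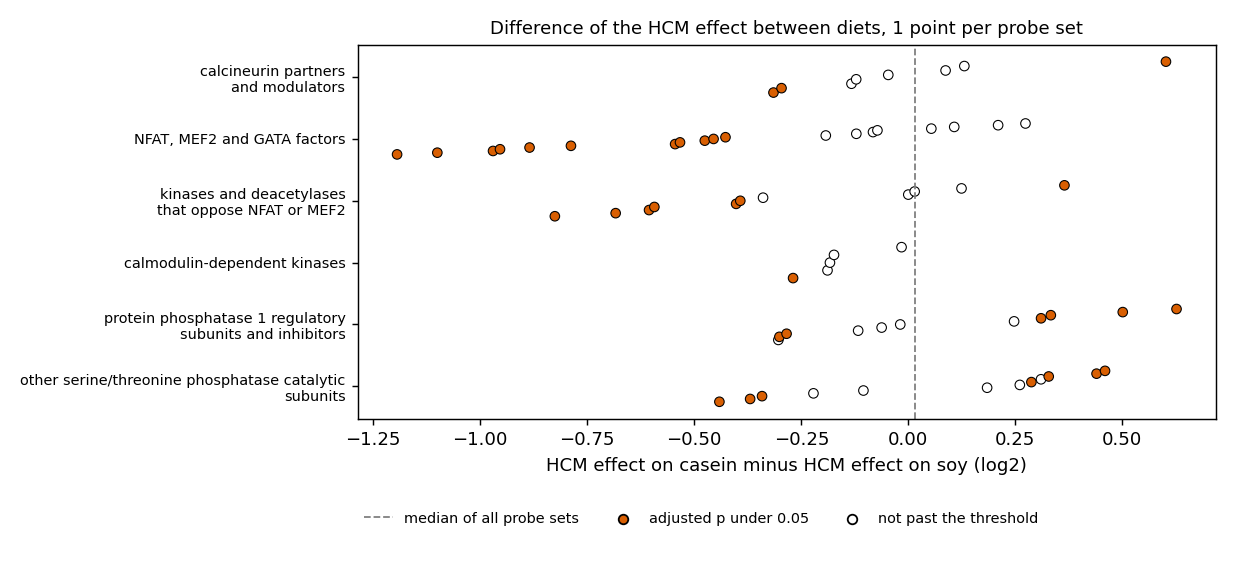
Diet dependence of the HCM difference, casein value minus soy value (log2, horizontal axis), for the 66 probe sets of the 6 lists, 1 point each, filled where the limma adjusted p was under 0.05; the dashed line is the median of all probe sets, 0.02. The NFAT, MEF2 and GATA list has 11 filled points, all below 0, and Ppp3cc at 0.60 is the filled point farthest right among the calcineurin partners.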

How the data were processed

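The authors deposited log2 values for each probe set, computed by RMA in Affymetrix Expression Console according to the labels (per the submitters' processing notes); no version is given there. Groups follow the labelled sex, diet and genotype. The 66 control probe sets were left out, and genes were named through the platform annotation, which gave 1 symbol to 10833 probe sets, several to 396 and none to 1193. A single limma model, 1 coefficient for each group, covered the 12422 others (R 4.3.3, limma 3.58.1, statmod 1.5.0; 22 residual and 5.86 prior degrees of freedom), and two-sided p-values were adjusted by Benjamini-Hochberg within each comparison, with a threshold of 0.05. The diet effect is casein minus soy, the sex effect female minus male, each averaged over the other factors. The fit was tested on simulated data. The members and lists were chosen with earlier results of these data known. List genes were named by the largest change past the threshold, and like genes by the highest correlation. No pair of arrays was identical (correlations 0.93 to 0.997). Over all groups, same-numbered arrays deviated together no more than others, so replicate numbers were not taken as pairs. The median r was -0.01, with 21 of 99 pairs over 0.1, against 0.02 and 80 of 294 for different numbers. Within casein WT the replicate number did follow array sets A and B. Alternatives covered normalization, a filter on dim probe sets, array weights, the array set as a block (consensus correlation 0.179), one sex or diet alone and leaving out each array. Scanner files were not used here. Promoters are credited to RefSeq; none was listed for Ppp3ca or Ppp1ca.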

Additional observations from a re-analysis of the deposited data

Results flagged for a closer look

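Ppp3cb on male soy WT replicate 2 was 4.85, far below the other 3 arrays of its group: the gap to the nearest was 0.975 of the group's range, above Dixon's 95% critical value for 4 arrays. It was the 1 such value among 30 sets of 4 arrays, and chance gives about 1 in 20.

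The HCM difference of Ppp3ca differed between the diets by -0.96 (log2, casein minus soy), by the test of the difference itself.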

How the results depend on the processing

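Over all alternatives, 3421 of 3533 tested member values kept their direction and side of the threshold, 72 were no longer past it, 39 came to pass it and 1 reversed; of 1861 descriptive HCM values 1851 moved by less than the spread between replicates. The reversed value was the mean diet difference of Ppp3ca, 0.43 without the casein HCM arrays, which leaves WT alone, against -0.05. Of the 5 members, the 2 diet calls became 1 without the dimmest 40% of probe sets, 4 with array weights, 4 in females only, 1 in males only and 1 without the casein HCM arrays. After a further quantile normalization Rcan1 passed in addition to those 2 (limma adjusted p = 0.0444). The 1 call for the dependence of the HCM effect on diet, Ppp3ca, became 3 with array weights, 3 in females only, 2 with set A of the casein WT arrays only and 3 without the 2 arrays that stand apart, an alternative chosen after seeing the data. The 26 list calls for the HCM effect became 4 when the array set was a random block, 12 in females only, 7 in males only and 43 on casein only. The causes were not tested, except that subsets hold fewer arrays. Leaving out each array in turn gave 2 to 2 diet calls, 1 to 3 calls for the diet dependence (3 without male soy WT replicate 2), 24 to 30 list calls, and 0 to 0 calls each for sex and its interactions with HCM and with diet. With the replicate number as a block, the Ppp3ca diet dependence was -0.96 (limma adjusted p = 0.000481), and the mean diet differences of Ppp3cb and Ppp1cc were -0.21 and 0.27, with no member call changed in the mean effects or interactions. The diet by sex test could not be fitted in subsets of one sex or diet. Without scanner files, signal over background was not assessed.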
